A study of Mus musculus with 2 samples.

Results

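ON bipolar cells are the retinal interneurons that signal increases of light, and they do so through a sign-inverting synapse. In darkness, glutamate from rods and cones activates mGluR6, a metabotropic receptor on the bipolar dendrite, whose G protein Go keeps the cation channel TRPM1 shut. When light lowers glutamate, a complex of RGS proteins speeds the shut-off of Go, TRPM1 opens and the cell depolarises. Loss of the receptor, the channel or their scaffolding proteins causes congenital stationary night blindness. Here 10 genes of this cascade were followed: the receptor gene Grm6, the channel gene Trpm1, the scaffold and adhesion genes Nyx, Lrit3 and Gpr179, the G protein genes Gnao1 and Gng13, the RGS genes Rgs7 and Rgs11, and Prkca, a kinase used as a marker of rod bipolar cells.

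The samples were eye cups of mice at postnatal day 13, with RNA from 6 wild-type animals in the first pool and from 6 animals labelled Mfsd2a KO in the second. Mfsd2a encodes a transporter that takes up lysophospholipids carrying docosahexaenoic acid. Each pool went onto 1 Affymetrix mouse expression array, and cornea, lens and optic nerve had been removed, which leaves retina, pigment epithelium, choroid and sclera. The labels do not give the strain, the sex of the animals, the part of the gene deleted or any treatment. The members were found by gene symbol: of the 18193 genes with a probe set that carries 1 symbol, 8 of the 10 cascade genes were present, with 16 probe sets between them. Grm6 and Lrit3 had no probe set carrying their symbol in the annotation used here, so the receptor itself is not described. The name of the cascade rests on bipolar cells being in the pools, and the bipolar markers Cabp5 (intensity 1498 on the wild-type array and 1510 on its counterpart), Sebox (1086 and 1025) and Car8 (1175 and 1271) were all read well over the array median.

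Several facts of the series touch every value here. Since each genotype is a single array, no replicate spread exists and no test of genotype was made, and the number of arrays limits the precision. The probe set of Mfsd2a itself read 181 for wild type and 244 for the second pool, against the direction of a knockout label. That pool is therefore named the array labelled knockout, and each direction rests on the label. Xist, expressed from the inactive X of females, read 7055 and 4357, and the Y-linked Uty read 78.2 and 157, so the pools differed in sex-linked transcripts. In bulk RNA, fewer cells of a type and less RNA per cell cannot be told apart.

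Pairs of intensities are given with wild type first, and differences as log2 intensity on the array labelled knockout minus wild type. A probe set counted as measured when it reached the median of its array on either array (94.2 for wild type and 93.4 for its counterpart), and a gene was represented by its brightest probe set. Over 11568 measured genes the median difference was 0.014, and the central 95% ran from -0.21 to 0.23. The SD of differences between probe sets of 1 gene was 0.0886. It comes from the same 2 arrays, so it leaves out the spread between animals. It also leaves out any error that the probe sets of a gene share. The hybridisation spike-in controls differed between the arrays by a median of 0.099, which is more than this SD.

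The transcripts of the cascade were nearly level between the pools. All 8 cascade genes with a probe set were measured, and 0 of them differed by 1.2-fold in either direction, where 2.96% of all measured genes did. At that background few genes of any kind pass the size, so the count sets the cascade apart from no other genes. The count was also 0 at 1.5-fold, which 0.225% of genes passed, and at 1.1-fold, which 16.4% passed. Their differences ran from -0.11 for Trpm1 to 0.053 for Gpr179, with a median of -0.017, and 5 lay below 0. Among all measured genes 42.4% lay below 0 and 55.8% above. Of the 13 cascade probe sets over the floor, 9 lay below 0, against 42.1% of all probe sets over it. All 8 lay within the central 95% of genes, and 7 lay nearer to 0 than the SD between probe sets of 1 gene.

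**Figure D1:**
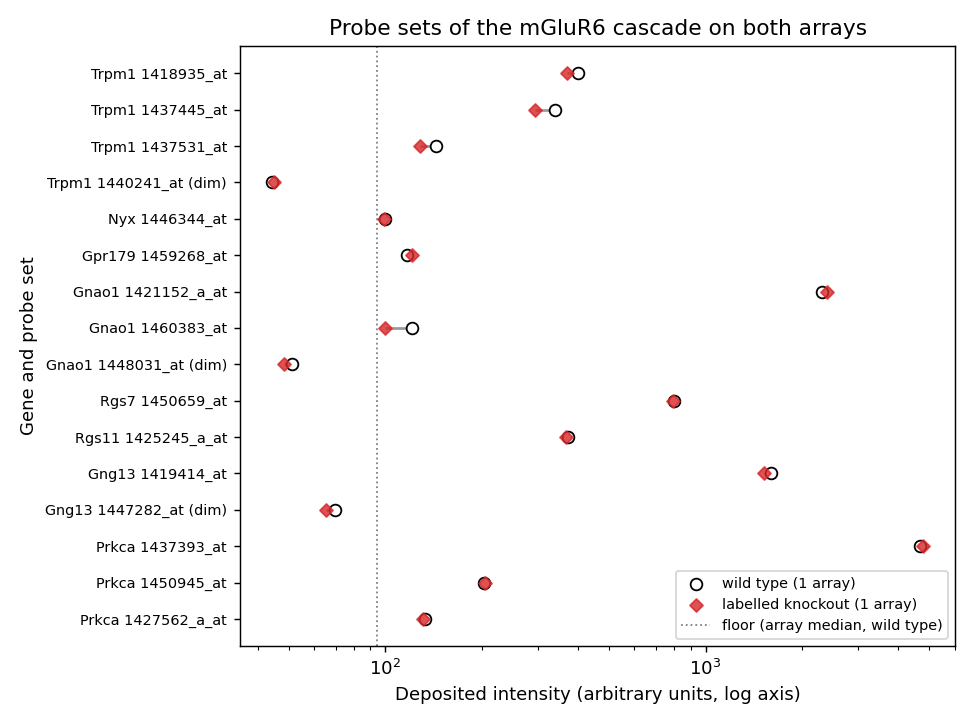
Deposited intensity (log axis) of each of the 16 probe sets of the cascade genes on the wild-type array (open circles) and the array labelled knockout (red diamonds), 1 array each, with the floor as a dotted line. Circle and diamond overlap for most probe sets, 3 of which lie under the floor and are marked dim.

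The channel gene Trpm1 had the lowest difference of the cascade. TRPM1 carries the depolarising current of ON bipolar cells, and the same gene, first known as melastatin, is also expressed in melanocytes. Its brightest probe set (1418935_at) read 399 and 370, a difference of -0.11. Its next probe set (1437445_at) read 339 and 293, a difference of -0.21. The third (1437531_at) read 144 and 128, a difference of -0.16. All 3 probe sets above the floor were thus lower in the same pool, by 1.08-fold to 1.15-fold, with a mean of -0.16 ± 0.049 (SD over 3 probe sets, which are not replicates of a sample). Of the 1236 genes with 3 probe sets above the floor, 14.9% had all 3 below 0, and 21 genes, or 1.7%, had all 3 at or below -0.11. That comparison was chosen after the values of Trpm1 were seen and describes its place only. The fourth probe set (1440241_at) lay under the floor at 44.4 and 44.9 and showed no such difference.

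Because Trpm1 is shared by bipolar and pigment cells, markers of both were set beside it. Of 12 pigment cell markers, 11 were measured, and all 11 were below 0, with a median of -0.13. The melanosome genes Mlana (1118 and 918, -0.28) and Tyrp1 (3135 and 2714, -0.21) differed by more than Trpm1 did. The intensities of the 11 summed to 19356 in wild type against 17400, and the lowest readings were 199 and 198. Dct (-0.15) and Pmel (-0.13) had differences of about the size of that of Trpm1. Tyr, the tyrosinase gene, was at -0.11 in its brightest probe set, but its other 2 above the floor were at 0.037 and -0.058. Mitf, the master regulator of pigment cells, differed by only -0.023 and Mc1r by -0.011. Sox10 was at -0.012 in its brightest probe set but at -0.22 in its second (117 and 101). The 7 markers of ON and rod bipolar cells did not share this direction: 5 were above 0 with a median of 0.013, or 3 with a median of -0.0015 once a loess trend on level was removed. Without _s_at, _x_at and _a_at probe sets 9 of 10 measured pigment cell markers lay below 0, and under the other alternatives all that were measured did. Lists of other cells also held genes below 0. Ganglion cell markers were below 0 in 8 of 9 measured genes (median -0.17), and postsynaptic partners in 4 of 7 (median -0.11). How much of the Trpm1 signal came from pigment cells was not tested.

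**Figure D2:**
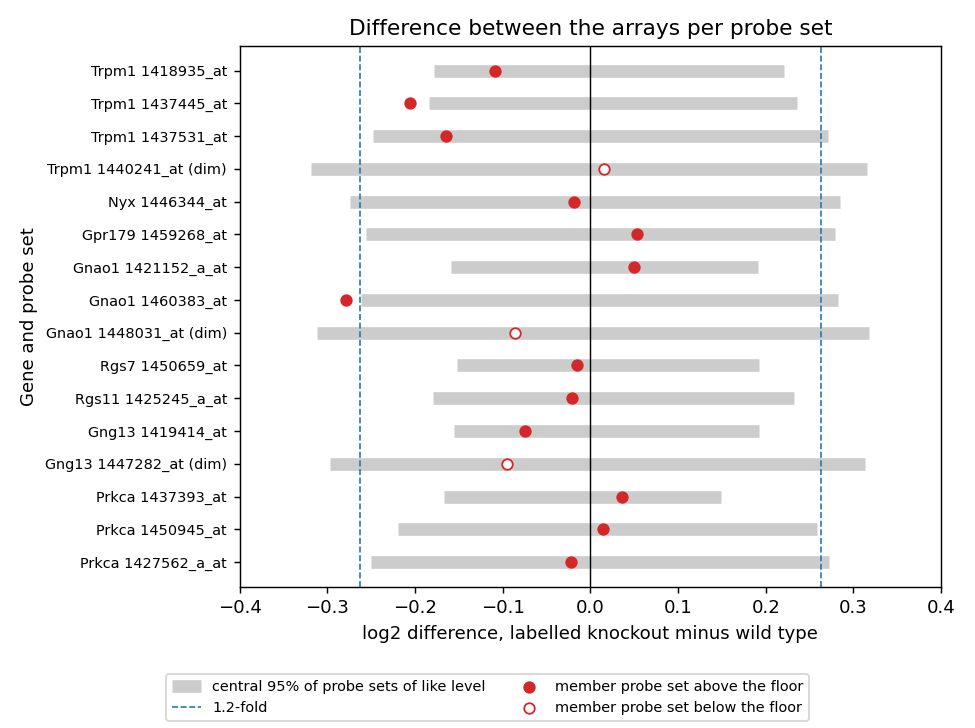
The log2 difference of each of the 16 probe sets (filled, above the floor; open, below it) against the central 95% of all probe sets with 1 symbol within 0.5 log2 units of its mean level (grey bars), with 1.2-fold as dashed lines. The second Trpm1 probe set and the second Gnao1 probe set lie below their bars, and the others lie inside.

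The reference sequence upstream of Trpm1 is shown because the gene has more than 1 start in RefSeq and because both cell types use it. The E-box letters CATGTG and CACGTG are bound by MITF, and the letters TAATCC by the CRX and OTX homeodomain factors of photoreceptors and bipolar cells. Each was searched on both strands in the 250 bases before the start, and matches are in capitals. The E-box letters were chosen after the Trpm1 values were seen. The windows are from RefSeq, build GRCm38.p6, plus strand, at chr7:64153585-64153834 and chr7:64185209-64185458:
Trpm1, upstream start: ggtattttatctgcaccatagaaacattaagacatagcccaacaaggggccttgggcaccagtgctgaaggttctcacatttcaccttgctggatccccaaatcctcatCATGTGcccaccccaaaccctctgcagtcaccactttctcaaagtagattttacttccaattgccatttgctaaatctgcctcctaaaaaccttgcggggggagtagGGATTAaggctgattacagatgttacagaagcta
Trpm1, downstream start: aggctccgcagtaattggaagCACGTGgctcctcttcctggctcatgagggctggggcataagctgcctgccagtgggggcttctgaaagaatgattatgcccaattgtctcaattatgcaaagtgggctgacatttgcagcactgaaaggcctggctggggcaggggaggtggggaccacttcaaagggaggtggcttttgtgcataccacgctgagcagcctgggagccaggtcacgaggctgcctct

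The upstream window held CATGTG, beginning 141 bases before the start, and the reverse complement of TAATCC, beginning 34 bases before it. The downstream window held CACGTG, beginning 229 bases before its start. Of all 32851 promoter windows of this length, 17.6% held either E-box and 6.25% held TAATCC. Counted in the same way, 6 of 10 windows of pigment cell markers held an E-box, against 0 of 6 of ON and rod bipolar markers. For markers of all bipolar types 2 of 13 windows did, and for the postsynaptic partners 2 of 9. Every one of these matches was CATGTG, which 12.3% of all windows held. CACGTG, the match in the downstream Trpm1 window, was in 6.02% of all windows. It was in 0 of 10 windows of pigment cell markers, and in 0 of the bipolar and partner windows. TAATCC was in 2 of 10 windows of pigment cell markers, 2 of 6 of ON and rod bipolar markers and 2 of 13 of all bipolar types. Of the 10 cascade genes, 9 had a window, and Trpm1 was the one with TAATCC. Besides Trpm1, Rgs7 (CACGTG) and Gnao1 (CATGTG) held an E-box. These are matches of letters and show no binding, and which start the 3' probe sets read was not analysed here.

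The scaffold genes were level between the pools. Nyx encodes nyctalopin, a leucine-rich repeat protein that brings TRPM1 to the dendritic tip, and its 1 probe set read 100 and 98.9 (-0.018). Nyx is X-linked, and the pools differed in the sex-linked transcripts named above. Whether that difference touches the reading of Nyx was not tested. Gpr179, an orphan receptor that anchors RGS proteins at the same tips, read 117 and 121 (0.053). Both intensities lie close to the floor, where the central 95% of probe sets of like level spread from -0.27 to 0.28 for Nyx and from -0.26 to 0.28 for Gpr179. A difference smaller than that would not stand out from other probe sets for these genes.

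The G protein genes gave readings that did not all point one way. Gnao1 encodes the alpha subunit of Go, which couples mGluR6 to the channel and is found in neurons throughout the retina. Its brightest probe set (1421152_a_at) read 2313 and 2394, a difference of 0.049. Its second (1460383_at) read 121 and 99.98, a difference of -0.28 or 1.21-fold lower. It was the 1 probe set of the 13 above the floor past 1.2-fold, where 3% of all probe sets above the floor were. Among probe sets of like level, 1.89% lay lower still. The third (1448031_at) was below the floor at 51.4 and 48.4 (-0.086). The probe sets of Gnao1 thus disagreed in sign, and their SD over the 2 above the floor was 0.23, so no direction is given for the gene.

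Gng13 encodes a gamma subunit found in ON bipolar cells and taste cells. Its probe sets read 1600 and 1519 (-0.075) and, below the floor, 69.9 and 65.5 (-0.095). Both were slightly lower in the same pool. Of probe sets at the level of the brighter one, 10.2% lay lower. The beta subunit gene Gnb3, which in the retina serves cones and ON bipolar cells and was fixed as a partner and not a member, read 2409 and 2615 (0.12), in the other direction.

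The RGS genes differed little. Rgs7 and Rgs11 encode the GTPase activators that share the work of turning Go off when light arrives. Rgs7 read 799 and 790 (-0.015). Rgs11 read 371 and 366 (-0.020). Each had 1 probe set. At least as large a distance from 0 was found in 86.1% of measured genes for Rgs7 and in 81.5% for Rgs11.

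Their partner subunits had larger differences. Gnb5, the beta subunit without which R7 RGS proteins are unstable, read 5488 and 5099 (-0.11). Its second probe set above the floor read 200 and 193 (-0.053). Rgs7bp, a membrane anchor of the same complex, read 339 and 294 (-0.21), and its 3 probe sets above the floor ran from -0.21 to -0.12. Rgs9bp, an anchor used in photoreceptors and in ON bipolar cells, read 3916 and 3382 (-0.21). Rgs9, the R7 member of photoreceptors, read 305 and 258 (-0.24), but its other 2 probe sets above the floor differed by -0.050 and -0.068. Rgs6, the remaining R7 member, read 106 and 118 (0.16), in the other direction. None of these 5 genes reached 1.2-fold. Rgs9, Rgs9bp and Gnb5 are also photoreceptor genes, and of 10 rod markers 8 were measured, 6 of them below 0, with a median of -0.040 and summed intensities of 74869 and 73633. The part of photoreceptors in these differences was not tested.

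Prkca, which encodes protein kinase C alpha and is abundant in rod bipolar cells, was read by 3 probe sets. The brightest (1437393_at) read 4655 and 4772 (0.036). The second read 203 and 205 (0.014), and the third 133 and 131 (-0.022). They lay on both sides of 0, with a mean of 0.0094 ± 0.029 (SD over 3 probe sets). Of the cascade genes with at least 3 probe sets, Prkca had the closest agreement between them.

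**Figure D3:**
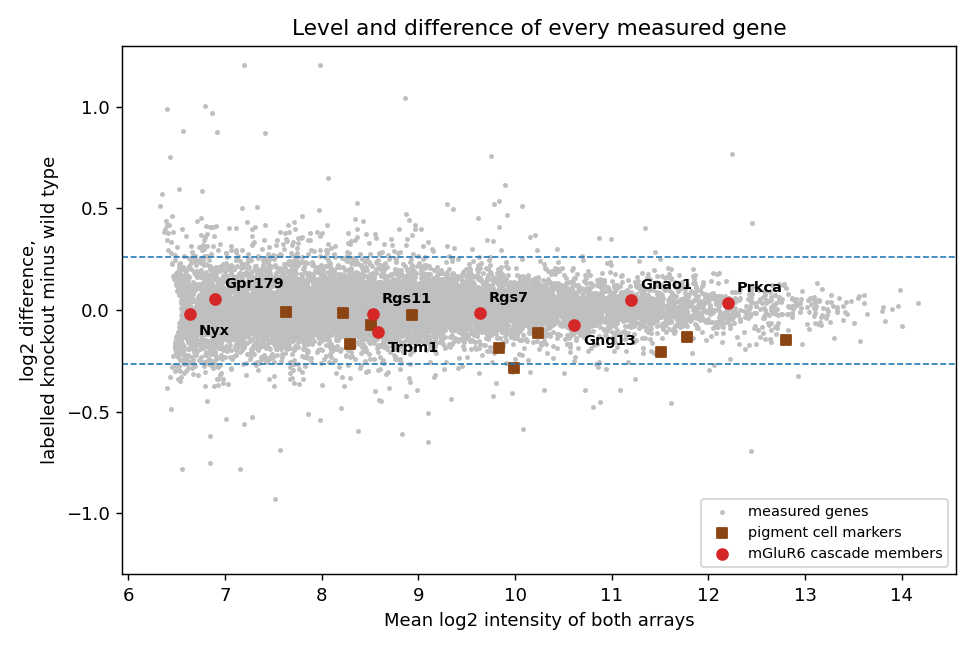
Mean log2 intensity of both arrays against the log2 difference for the 11568 measured genes (grey), the 8 cascade genes (red) and the 11 measured pigment cell markers (brown), with 1.2-fold as dashed lines. The cascade genes sit near 0 over the whole range of intensities, and the pigment cell markers all lie below 0.

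Other genes of the synapse were taken from lists written from general knowledge. Of 7 postsynaptic partners, all measured, 4 were below 0 and 0 passed 1.2-fold, with a median of -0.11. Tpbg, a rod bipolar membrane protein linked to protein kinase C, was the lowest at -0.24 (471 and 399), with its second probe set at -0.15. By brightest probe set Pcp2, a modulator of Go in rod bipolar cells, was the highest at 0.13 (3555 and 3898). Its 3 probe sets were all above 0. Ric8a was at 0.060 in its brightest probe set and at 0.23 in its second (278 and 326). The list therefore held genes of ON bipolar cells on both sides of 0.

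On the photoreceptor side of the cleft, 9 of 9 genes were measured, 6 were below 0 and 0 passed 1.2-fold, with a median of -0.043. Elfn1, an adhesion protein that binds mGluR6 across the cleft, read 726 and 816 (0.17). Cacna1f, the calcium channel of the photoreceptor terminal, read 767 and 699 (-0.13), and its subunit gene Cacna2d4 read 1057 and 995 (-0.088). Slc17a7, which loads glutamate into vesicles, read 683 and 637 (-0.10). Egflam, whose product pikachurin binds GPR179 and dystroglycan, differed by -0.030.

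Read through the brightest probe set above the floor, close relatives of the members showed no gene past 1.2-fold either. Of 6 measured metabotropic glutamate receptors 4 were below 0, from Grm7 (-0.15) to Grm5 (0.14), and the list median was -0.052, or -0.0018 over the 2 left by a floor at the 70th percentile. Of 4 measured TRPM channels, Trpm1 was the 1 below 0, with a median of 0.031, and Trpm7 was the highest (876 and 987, 0.17). That split depended on the setting: 2 of 4 were below 0 with the loess trend removed, and with no floor 5 of 8 were, 1 of them past 1.2-fold, with a median of -0.044. Across the 7 Gi and Go alpha subunits the median was 0.0087 with 5 above 0, and the cone transducin gene Gnat2 was at -0.16. No direction is given for this family, since its median was -0.0063 with the loess trend removed, -0.044 with the mean of probe sets, and -0.080 both without _s_at, _x_at and _a_at probe sets and with the probe set of largest difference. The 9 measured gamma subunits ran from Gng13 (-0.075) to Gng7 (0.16), with a median of -0.0030. Another gamma subunit gene lay lower with no floor (-0.12), and the lowest value was -0.24 without _s_at, _x_at and _a_at probe sets and with the probe set of largest difference. The other measured conventional protein kinase C gene, Prkcb, differed by -0.055.

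**Figure D4:**
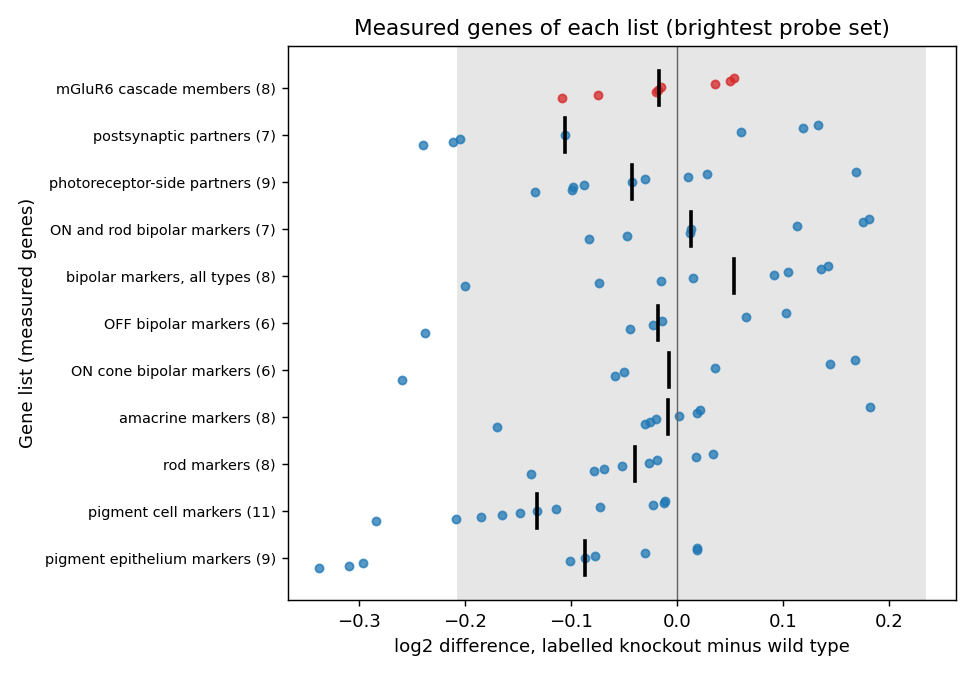
The log2 difference of each measured gene (points; brightest probe set) in 11 lists, with the list median as a black bar, the number of measured genes in brackets and the central 95% of all measured genes as a grey band. The cascade genes (red) run from -0.11 to 0.053, and the pigment cell markers lie wholly below 0.

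Markers of the bipolar cells that hold the cascade were set beside it. In the ON and rod bipolar list, Isl1, a transcription factor of ON bipolar cells and other neurons, differed by 0.18 in both of its probe sets. Bhlhe23, a factor needed for rod bipolar cells, read 184 and 208 (0.18), and Car8 was above 0 in its 3 probe sets (0.052 to 0.11). Sebox (-0.083) and Strip2 (-0.047) lay below 0, and Cabp5 and Vstm2b differed by 0.012 and 0.013. Of 8 measured markers shared by all bipolar types, 5 were above 0 with a median of 0.053, or 0.015 without _s_at, _x_at and _a_at probe sets, among them Otx2 (0.14) and Neurod4 (0.14), while the GABA receptor gene Gabrr2 read 526 and 458 (-0.20). OFF bipolar markers had a median of -0.019 over 6 genes, or 0.011 with the mean of probe sets and 0.067 with the probe set of largest difference, and Tacr3 read 743 and 630 (-0.24). ON cone bipolar markers had a median of -0.0073 over 6 genes, and Cck read 438 and 366 (-0.26). That median ran from -0.16, over the 2 genes above the 70th percentile, to -0.0073 under the alternatives, so neither list is given a direction. None of the markers in these 4 lists reached 1.2-fold, apart from 1 ON cone bipolar marker with the loess trend removed.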

How the data were processed

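The values deposited by the authors are linear intensities of 45101 probe sets on 2 arrays. The authors used RMA (background correction, equalised distributions and summarised probe sets) and Partek 6.6, per the submitters' processing notes, with order and settings not given in the sources used here. RMA shrinks dim differences and evens out any global shift of a pool. Log2 values were computed here. Probe sets with 1 symbol in the platform annotation (34945 without controls) were used. Those with several symbols (932) or none were left out. All 8 members present matched the RefSeq table by Entrez identifier. Members and gene lists were chosen with earlier results of these data known. Of the lists, genes at least 1.2-fold different or up to 4 with the largest differences were to be named; further genes named for their role were chosen after their values were seen. There was no test. The steps ran in Python 3.11.15, numpy 2.4.6, pandas 2.3.3 and statsmodels 0.14.6, and counting was tested on simulated data. Alternatives were the 70th percentile as floor, no floor, averaged probe sets, no _s_at, _x_at or _a_at sets, a loess trend removed (span 0.3), other fold sizes and, added after seeing the data, the probe set with the largest difference.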

Additional observations from a re-analysis of the deposited data

How the results depend on the processing

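No paired analysis was possible because the design holds a single array for each group. The count of 0 cascade genes at least 1.2-fold lower became 1, Gnao1, without _s_at, _x_at and _a_at probe sets and also with the probe set of largest difference. By construction, both choices read Gnao1 through its dimmer probe set (-0.28), and with the mean of its probe sets it differed by -0.11. With the probe set of largest difference Trpm1 was at -0.21. The count stayed 0 in both directions at 1.1-fold and 1.5-fold. The cascade median stayed between -0.019 and -0.017 under every alternative run. In the main reading it lay between Rgs7 and Nyx, each with 1 probe set, which no choice among probe sets can change. The median of the postsynaptic partners moved from -0.11 to -0.15 without _s_at, _x_at and _a_at probe sets. That setting left 5 of the 7 genes measured, without Gnb5 and Ric8a. It read Tpbg through its second probe set (-0.15), which was then the median. Of 45 values of single cascade genes under the alternatives, 41 moved by less than the SD between probe sets of 1 gene. Many of the 45 could not move. Rgs7, Rgs11, Nyx and Gpr179 have 1 probe set each, and a change of floor keeps the brightest probe set. The 41 therefore show little about how steady the values are. For medians of the other lists the limit was the SD between probe sets divided by the square root of the number of genes. Of these medians, 24 of 132 moved further. Signal over background limits Nyx and Gpr179 most, since both lie near the floor.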

Other observations

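Among other interneurons, horizontal cell markers held larger differences than the cascade. Lhx1, a transcription factor of horizontal cells, read 135 and 178 with wild type first (0.40), and 111 and 136 in its second probe set (0.29). Prox1, a factor of horizontal and other inner retinal cells, was above 0 in its 3 probe sets, at 0.17, 0.40 and 0.18. Calb1, the calcium buffer of mature horizontal cells, went the other way at 2514 and 2108 (-0.25), although its dim probe set differed by 0.029. The list's median was 0.027 over 5 measured genes, or 0.15 with the mean of probe sets. Of 8 measured amacrine markers 4 were below 0, with a median of -0.0090, and Gad1, which makes GABA, read 4293 and 4299.

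Larger differences were found among markers of other retinal cells and of tissues around the retina. Measured pigment epithelium markers were below 0 in 7 of 9 genes with a median of -0.087, and the visual cycle genes Rdh5 (2722 and 2154, -0.34), Lrat (-0.31) and Rgr (-0.30) passed 1.2-fold. Ganglion cell markers were below 0 in 8 of 9 with a median of -0.17, and the neurofilament gene Nefh was at -0.39. Mueller glia markers were below 0 in 7 of 10 with a median of -0.050, and 0 passed 1.2-fold. All 7 measured lens markers were above 0 with a median of 0.23, and the crystallins Cryga (0.40), Crygf (0.38) and Cryaa (0.35) passed 1.2-fold. Of 6 measured cornea and conjunctiva markers 5 were below 0 with a median of -0.43 (-0.29 with no floor). They were led by Aldh3a1 (142 and 92.7, -0.62), Krt14 (178 and 121, -0.56), Krt4 (185 and 129, -0.53) and Krt5 (-0.33). These intensities were low, and the 70th percentile floor left 1 gene of the list, at -0.33. Skeletal muscle markers were below 0 in 5 of 7 with a median of -0.20, including Pvalb (-0.61) and Ckm (-0.34), but in 2 of 4 with a median of -0.084 at the 70th percentile floor. The hybridisation spike-in controls had a median difference of 0.099, with 17 of 18 above 0, a technical difference about as large as that of Trpm1 and opposite in sign.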
